A study of Mus musculus with 6 samples.

Results

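The genes described here are 44 mouse genes that copy DNA in S phase and supply its building blocks: origin licensing factors, the replicative helicase, DNA polymerases, the sliding clamp and its loader, nucleotide synthesis enzymes, the maintenance methylation pair and the regulators that start S phase. They were picked by gene symbol in the GENCODE M21 annotation, by a rule that uses no measured value but was written with earlier results of these data known, and are 44 of the 43629 gene rows counted. All 44 passed the filter on low counts, which left 15432 genes for testing. Every mouse was of strain C57BL/6, carried the Cbfb-MYH11 knockin (a fusion that drives human acute myeloid leukaemia with inverted chromosome 16) and had reached end-stage disease; marrow sorted for c-kit was the source of the RNA. The 3 Gata2+/f libraries (replicates 7, 9 and 11) came from mice with 1 Gata2 allele that the labels write as f, and the 3 Gata2+/+ libraries (replicates 3, 5 and 6) from mice with both alleles wild type. The labels do not describe the f allele further. Ages and the treatment of the mice are not given in the sources used here, and nothing states that each library came from its own mouse, so p-values measure the spread between these libraries. The comparison asks how the f allele goes with gene expression in this leukaemia.

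Replication is prepared in G1, when the origin recognition complex, Cdc6 and Cdt1 load rings of MCM2-7 on DNA, and it starts in S phase, when Cdc45 and GINS join the rings and turn them into active helicases. Polymerase alpha with primase lays down primers, RFC loads the PCNA clamp, polymerases delta and epsilon extend the strands, and Fen1 and Lig1 join the lagging strand pieces. Most of these genes are transcribed under E2F factors once cyclin-dependent kinases have inactivated the RB family, so their RNA is high in cycling progenitors and low in cells that have left the cycle. In bulk RNA, fewer cells in S phase and less RNA per cell cannot be told apart.

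Libraries held 53789568 to 67854631 expected counts, at which 3 counts equal 0.0424 to 0.0600 CPM (counts scaled to library size with TMM factors); the lowest value of any member was 1.92 CPM. Gata2 had 498, 273 and 264 CPM in Gata2+/f replicates 7, 9 and 11, against 886, 887 and 737 CPM in Gata2+/+ replicates 3, 5 and 6 (log2 fold change −1.28, SE 0.32; edgeR adjusted p = 0.109). Each Gata2+/f library lay below each Gata2+/+ library. Kit, the receptor used for the sort, was present in all libraries but lower in Gata2+/f. It had 193, 175 and 328 CPM in Gata2+/f and 826, 1222 and 1466 CPM in Gata2+/+, with groups apart. Its log2 fold change was −2.34 (SE 0.36; edgeR adjusted p = 0.0955, DESeq2 adjusted p = 6.4e-06).

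Replication genes had higher levels in Gata2+/f leukaemia across nearly the whole set. Of the 44 members, 43 had a positive log2 fold change, with a median of 0.90, where 51.1% of all tested genes were positive and their median was 0.02. In 29 members (65.9%) each Gata2+/f library lay above each Gata2+/+ library, against 13.1% of all tested genes, and in 1 member, Rfc2, each lay below (16.6% of all tested genes). Adjusted over all genes, edgeR's quasi-likelihood test called 0 of the 44 members and 0 genes overall (0% called). At an unadjusted p under 0.05 it had 27 members higher (61.4%; background 11.1%) and 1 lower (background 11.5%), and 22.6% of all genes reached that p in either direction. DESeq2's Wald test, at adjusted p under 0.05, called 14 members higher (31.8%; background 5.49%) and 1 lower (background 4.91%). The bias-adjusted form of edgeR's test called 0 members (0.207% of all genes) and limma voom called 0 (0.0583%). The smallest edgeR adjusted p of a member was 0.0955, that of Cdc45. Higher and lower therefore describe levels of genes that did not pass edgeR's adjusted test.

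**Figure D1:**
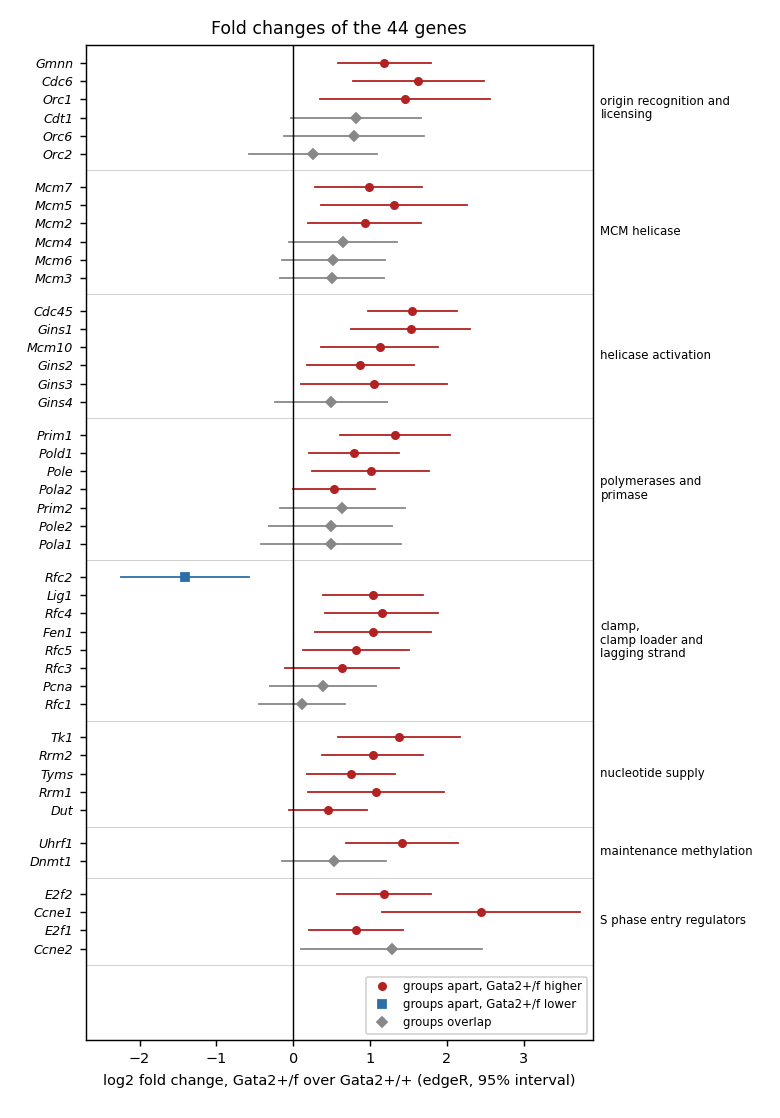
Log2 fold change of each of the 44 genes, Gata2+/f over Gata2+/+, with the 95% interval of the edgeR model, grouped by role and ordered by p within a role. Points for 43 genes lie right of 0, and Rfc2, at −1.41, is the single point left of it.

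The difference was uneven between libraries. Gata2+/f replicate 7 was the highest of the 6 libraries for 43 members, and Gata2+/+ replicate 5 was the lowest for 38. Summed over the 44 genes, the level was 6869, 4670 and 4425 CPM in Gata2+/f replicates 7, 9 and 11, against 3947, 2720 and 3786 CPM in Gata2+/+ replicates 3, 5 and 6. The groups did not overlap in this sum, and replicate 11 lay much closer to Gata2+/+ replicate 3 than to Gata2+/f replicate 7. The mean was 5321 ± 1346 CPM in Gata2+/f and 3484 ± 667 CPM in Gata2+/+ (SD, n = 3 each), a ratio of 1.53. Without Gata2+/f replicate 7, 41 members stayed positive and the median log2 fold change was 0.72; without Gata2+/+ replicate 5 the median was 0.77.

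**Figure D2:**
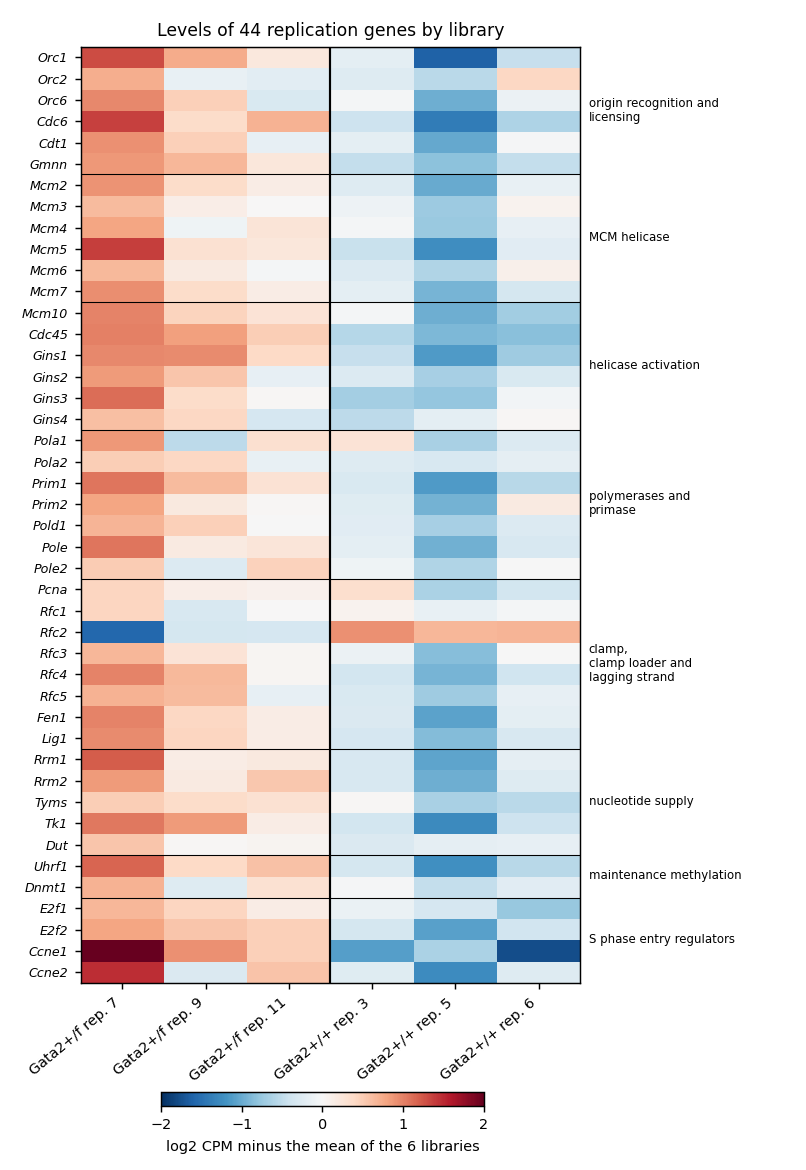
Level of each gene in each library as log2 CPM minus the mean of its 6 libraries, in rows grouped by role, with Gata2+/f libraries left of the black line and Gata2+/+ libraries right of it; the colour scale ends at −2 and 2. Gata2+/f replicate 7 is darkest red in every row except Rfc2, and Gata2+/+ replicate 5 is bluest in 38 rows.

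Since nearly all members had higher levels, their promoters were searched for the E2F motif, spelled TTTCCCGC, TTTCGCGC, TTTGCCGC or TTTGGCGC on either strand, where matches may overlap each other. The window ran from 150 bases before to 30 bases after each start site in the RefSeq promoter table for GRCm38.p6. That table held 35 of the 44 members; Ccne2, Gins1, Gins2, Gins4, Gmnn, Mcm4, Pole, Prim2 and Rfc2 were not matched. A motif was present for 10 of the 35 members (28.6%), against 3.09% of 10735 tested genes in the table and 1.74% of all 27025 genes in it. It was present for 7 of 31 other replication genes (22.6%) and for 1 of 15 mitosis genes (6.67%). The CCAAT box (letters CCAAT, either strand) was present for 18 of the 35 members (51.4%), against 38.7% of other replication genes, 86.7% of the mitosis genes and 33.7% of tested genes. The CHR element (TTTGAA, either strand), known from promoters of mitosis genes, was present for 5 of the 35 (14.3%), against 9.68% of other replication genes, 46.7% of the mitosis genes and 7.90% of tested genes. Cdc45, Uhrf1 and E2f2, which have smaller p than any member with a match, had none in this window, and a match or its lack describes letters only. Of the 10 members with a match, 6 had groups apart, and Mcm3, Mcm6, Pola1 and Pole2 had groups that overlapped; Mcm6 held 3 matches, the most of the 35. The 6 members with the smallest edgeR p among those with an E2F match are shown as examples of where the letters lie, at Cdc6 chr11:98908001-98908180 (plus strand), Mcm7 chr5:138171854-138172033 (minus strand), Mcm5 chr8:75109359-75109538 (plus strand), Orc1 chr4:108579304-108579483 (plus strand), Gins3 chr8:95633409-95633588 (plus strand) and Rfc3 chr5:151651179-151651358 (minus strand). Each is written 5′ to 3′ on the strand of the gene, with the motif in capitals, as its reverse complement where the match is on the other strand. The Mcm7 window belongs to the upstream of its 2 listed starts.
Cdc6: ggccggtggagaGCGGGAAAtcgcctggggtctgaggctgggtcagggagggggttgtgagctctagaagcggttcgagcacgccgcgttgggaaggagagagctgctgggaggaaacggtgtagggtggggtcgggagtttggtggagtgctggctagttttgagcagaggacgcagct
Mcm7: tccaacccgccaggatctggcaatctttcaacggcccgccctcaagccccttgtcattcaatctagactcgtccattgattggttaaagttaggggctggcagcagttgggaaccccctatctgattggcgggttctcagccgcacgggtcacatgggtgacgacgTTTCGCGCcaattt
Mcm5: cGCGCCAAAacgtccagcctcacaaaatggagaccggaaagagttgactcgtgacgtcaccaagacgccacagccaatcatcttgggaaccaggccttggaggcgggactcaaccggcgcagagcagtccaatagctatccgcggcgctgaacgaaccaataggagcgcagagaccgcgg
Orc1: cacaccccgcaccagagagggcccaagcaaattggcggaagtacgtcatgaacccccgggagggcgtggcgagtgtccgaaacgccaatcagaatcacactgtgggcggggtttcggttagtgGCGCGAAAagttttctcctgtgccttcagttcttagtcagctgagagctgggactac
Gins3: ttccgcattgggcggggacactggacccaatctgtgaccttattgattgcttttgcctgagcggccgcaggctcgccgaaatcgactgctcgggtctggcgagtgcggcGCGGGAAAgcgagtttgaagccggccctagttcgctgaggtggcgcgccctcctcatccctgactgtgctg
Rfc3: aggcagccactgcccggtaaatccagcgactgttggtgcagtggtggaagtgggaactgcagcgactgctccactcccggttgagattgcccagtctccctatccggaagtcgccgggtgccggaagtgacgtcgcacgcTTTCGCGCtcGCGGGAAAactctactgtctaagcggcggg

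Licensing factors were higher by different amounts. Cdc6, the ATPase that loads MCM rings, had 92.8, 46.5 and 57.9 CPM in Gata2+/f replicates 7, 9 and 11, against 26.9, 13.6 and 23.3 CPM in Gata2+/+ replicates 3, 5 and 6. The groups were apart, with a log2 fold change of 1.63 (SE 0.37; edgeR adjusted p = 0.0971, DESeq2 adjusted p = 0.00563). Gmnn, geminin, which blocks Cdt1 after S phase has begun, had 57.6, 50.1 and 37.1 CPM in Gata2+/f, against 22.8, 18.0 and 22.8 CPM in Gata2+/+, also with no overlap (1.19, SE 0.26; edgeR adjusted p = 0.0966). Cdt1, which loads MCM rings with Cdc6, had a log2 fold change of 0.82 with overlapping groups. Its level was 72.4 ± 25.7 CPM in Gata2+/f and 40.9 ± 13.5 CPM in Gata2+/+ (SD, n = 3 each). Among the origin recognition subunits, Orc1, the subunit whose level varies through the cycle, had 16.8 ± 6.27 CPM in Gata2+/f and 6.13 ± 2.70 CPM in Gata2+/+ (1.46, SE 0.48). Orc6 had a log2 fold change of 0.79 with overlap. Orc2, a core subunit, had 115, 62.2 and 59.9 CPM in Gata2+/f, against 57.8, 47.5 and 92.4 CPM in Gata2+/+. Its groups overlapped (0.26, SE 0.36), and without Gata2+/f replicate 7 its log2 fold change was −0.06.

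The 6 subunits of the MCM2-7 ring, which enter it in equal number, divided into those whose groups were apart (Mcm2, Mcm5 and Mcm7) and those whose groups overlapped (Mcm3, Mcm4 and Mcm6). Mcm7 had 392, 266 and 229 CPM in Gata2+/f and 180, 108 and 161 CPM in Gata2+/+ (log2 fold change 0.98, SE 0.30; edgeR adjusted p = 0.143). Mcm5 had 516, 246 and 233 CPM in Gata2+/f and 146, 84.1 and 170 CPM in Gata2+/+ (1.31, SE 0.41; edgeR adjusted p = 0.145). Mcm3 had 350, 246 and 228 CPM in Gata2+/f and 210, 136 and 236 CPM in Gata2+/+ (0.50, SE 0.29). For Mcm3, Gata2+/+ replicate 6 lay above Gata2+/f replicate 11 and below the other Gata2+/f libraries. The log2 fold changes of Mcm2, Mcm4 and Mcm6 were 0.93, 0.65 and 0.52. Per kilobase of annotated exon, Mcm5 averaged 83.1 CPM per kb in Gata2+/f and 33.4 in Gata2+/+, and Mcm6 averaged 80.2 CPM per kb in Gata2+/f and 55.96 in Gata2+/+. Mcm5 was above Mcm6 in Gata2+/f replicate 7 only, at 129.3 and 103 CPM per kb, and below it in the other 5 libraries. Within each library the ratio of Mcm3 to Mcm2 counts was 0.972, 0.988 and 1.07 in Gata2+/f and 1.3, 1.42 and 1.35 in Gata2+/+. This pair was chosen after its values were seen, and the 2 sets of ratios did not overlap.

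**Figure D3:**
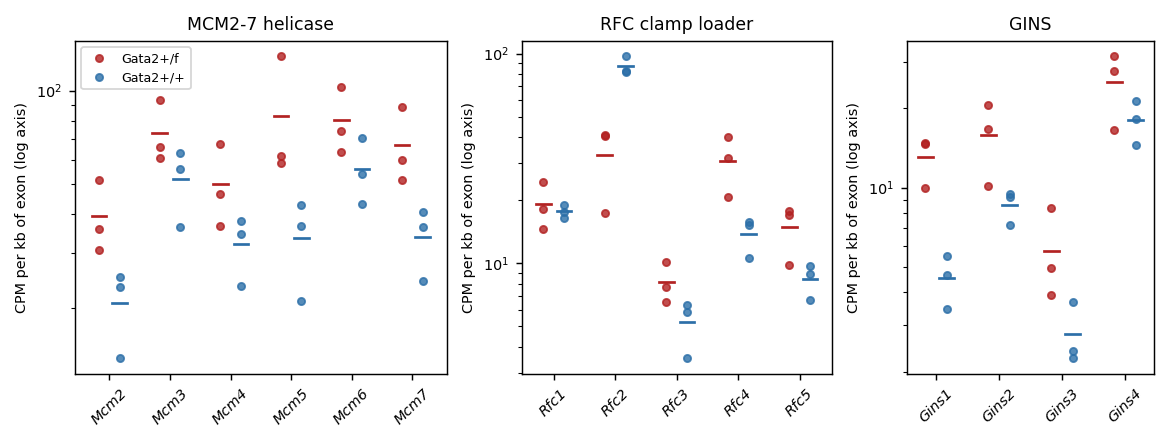
CPM per kilobase of exon, on log axes, for the subunits of MCM2-7, the RFC clamp loader and GINS; each point is 1 library, red for Gata2+/f and blue for Gata2+/+, and lines are group means. Rfc2 is the subunit whose Gata2+/f points lie below its Gata2+/+ points, and in Gata2+/+ it stands above every other RFC subunit.

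Factors that activate the helicase included the member with the smallest p. Cdc45, which completes the active helicase together with GINS, had 53.7, 47.2 and 37.8 CPM in Gata2+/f and 18.0, 14.4 and 14.97 CPM in Gata2+/+. The lowest Gata2+/f library had more than the highest Gata2+/+ library by a wide margin, and the log2 fold change was 1.55 (SE 0.25; DESeq2 adjusted p = 1.6e-05). Gins1 had 22.3, 22.1 and 15.2 CPM in Gata2+/f and 8.34, 5.26 and 7.02 CPM in Gata2+/+ (1.53, SE 0.33; DESeq2 adjusted p = 0.000558). The other GINS subunits, which join Gins1 in a complex of 4 different proteins, were higher by less. Gins2 and Gins3 had log2 fold changes of 0.88 and 1.05 with groups apart, while Gins4 had 42.7, 37.4 and 22.3 CPM in Gata2+/f and 19.7, 24.6 and 28.7 CPM in Gata2+/+, with overlap (0.49, SE 0.31). Per kilobase of annotated exon, Gins4 had the highest value of the GINS subunits, at 25.3 CPM per kb in Gata2+/f and 18.0 in Gata2+/+. That order depends on the annotated exon length, 1349 bases for Gins4 and 4097 for Gins2. In CPM, Gins2 was above Gins4 on average, at 64.7 against 34.1 in Gata2+/f and 35.3 against 24.3 in Gata2+/+. Mcm10, a helicase activator outside the ring, had 53.8 ± 14.7 CPM in Gata2+/f and 24.7 ± 8.57 CPM in Gata2+/+ (1.12, SE 0.33).

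Among polymerase genes, the groups were apart for the catalytic subunits of primase and of polymerases delta and epsilon, and for Pola2. Prim1, the catalytic primase subunit, had 96.1, 71.5 and 55.8 CPM in Gata2+/f and 37.1, 20.99 and 31.4 CPM in Gata2+/+ (log2 fold change 1.32, SE 0.31; edgeR adjusted p = 0.1003, DESeq2 adjusted p = 0.0113). Pold1, the catalytic subunit of polymerase delta, had 147, 127 and 90.4 CPM in Gata2+/f and 77.6, 57.6 and 75.5 CPM in Gata2+/+ (0.79, SE 0.25; edgeR adjusted p = 0.149). Pole, its counterpart in polymerase epsilon, had a log2 fold change of 1.01, also with groups apart. Pola1, the catalytic subunit of polymerase alpha, had 137, 52.3 and 94.1 CPM in Gata2+/f and 91.0, 47.9 and 62.4 CPM in Gata2+/+. Those groups overlapped (0.50, SE 0.39), since Gata2+/f replicate 9 lay below 2 of the Gata2+/+ libraries. The accessory subunits Pola2, Prim2 and Pole2 had log2 fold changes of 0.53, 0.64 and 0.49, and the groups overlapped for Prim2 and Pole2.

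The clamp loader held the exception. Rfc2, a small RFC subunit, had 109, 254 and 257 CPM in Gata2+/f replicates 7, 9 and 11, against 614, 515 and 520 CPM in Gata2+/+ replicates 3, 5 and 6. Every Gata2+/f library was below every Gata2+/+ library, and Gata2+/f replicate 7, the highest library for all other members, was the lowest for Rfc2. Its log2 fold change of −1.41 had an SE of 0.36 and a 95% interval of −2.24 to −0.58 (edgeR adjusted p = 0.111, DESeq2 adjusted p = 0.0166), and the value lay between −1.56 and −1.06 when any 1 library was left out. The other small subunits of the complex were higher, with log2 fold changes of 0.63 for Rfc3, 1.15 for Rfc4 and 0.82 for Rfc5, each with groups apart. Rfc1, the large subunit specific to this loader, had 148, 87.9 and 110 CPM in Gata2+/f and 114, 98.9 and 106 CPM in Gata2+/+, with overlap (0.11, SE 0.24; −0.06 without Gata2+/f replicate 7). Rfc2 counts were 1.78, 5.24 and 8.10 times those of Rfc4 in Gata2+/f and 25.6, 31.8 and 22.2 times in Gata2+/+. Per kilobase of exon, Rfc2 averaged 32.8 CPM per kb in Gata2+/f and 87.2 in Gata2+/+, where the other RFC subunits ranged from 5.25 to 17.7.

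Rfc2 occupies chr5:134581366-134601805 on the plus strand (GRCm38), and its end overlaps the end of Lat2 on the minus strand. The annotated exons of the genes share 952 bases, or 15.1% of the Rfc2 exon bases. Lat2, which encodes an adaptor protein of mast cell and B cell receptors, had 15.8, 39.95 and 76.1 CPM in Gata2+/f and 558, 408 and 258 CPM in Gata2+/+ (log2 fold change −3.22, SE 0.59; DESeq2 adjusted p = 1.8e-05). As for Rfc2, Gata2+/f replicate 7 was the lowest and Gata2+/+ replicate 3 the highest library. In Gata2+/+ replicates 5 and 6, however, Lat2 had 408 and 258 CPM where Rfc2 had 515 and 520 CPM. Rfc2 counts were 6.91, 6.37 and 3.38 times those of Lat2 in Gata2+/f and 1.10, 1.26 and 2.01 times in Gata2+/+. These ratios did not overlap between groups. The libraries were made with a stranded kit, but the strand setting of the counting is not given in the sources used here, so reads of the shared bases cannot be assigned to either gene with certainty. The part of Lat2 in the Rfc2 result was not tested. Exons of 15 members overlap another annotated gene, and for 8 the overlap covers 10% or more of the exon bases. The most covered were Fen1, with 78.8% shared with the antisense gene Gm10143, and Gins2, with 67.3% shared with Gse1 on the other strand. Counts over all libraries gave another order, as Gm10143 had 914 against 28935 for Fen1. Eif4a2, which shares 12.7% of the Rfc4 exon bases on the other strand, had 145877 against 13004 for Rfc4. Ints8, which shares 17.4% of the Ccne2 exon bases on the other strand, had 15332 against 6322 for Ccne2. Gse1, like Lat2, was lower in Gata2+/f, at 58.0 ± 25.4 CPM against 183 ± 65.1 CPM in Gata2+/+, while Gins2 was higher.

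The remaining lagging strand genes went with the majority. Lig1, the ligase that seals the fragments, had 230, 161 and 133 CPM in Gata2+/f and 94.97, 65.4 and 95.9 CPM in Gata2+/+ (log2 fold change 1.03, SE 0.28; DESeq2 adjusted p = 0.0415). Fen1, the flap nuclease that trims them, had a log2 fold change of 1.04 with groups apart. Pcna, the clamp itself, had 338 ± 45.8 CPM in Gata2+/f and 258 ± 92.6 CPM in Gata2+/+, with overlap (0.39, SE 0.30). Per kilobase it averaged 141 CPM per kb in Gata2+/f and 108 in Gata2+/+. By that measure it was the highest of the 44 genes in every library except Gata2+/+ replicate 5, where Rfc2 was above it. The order depends on annotated exon length: in CPM, the group means of Mcm6, 374 in Gata2+/f and 261 in Gata2+/+, were above those of Pcna. A processed copy, Pcna-ps2, took 7.92 ± 1.75 CPM in Gata2+/f and 5.38 ± 2.57 CPM in Gata2+/+, and reads may be split between it and Pcna. Summed over the 8 genes of this role, the level was 1083 ± 106 CPM in Gata2+/f and 1129 ± 187 CPM in Gata2+/+, and without Rfc2 it was 876 ± 187 CPM in Gata2+/f and 579 ± 136 CPM in Gata2+/+.

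All 5 nucleotide supply genes had groups apart with Gata2+/f higher, as did 13.1% of all tested genes. Tk1, the thymidine kinase of S phase, had 113, 98.3 and 60.5 CPM in Gata2+/f and 42.0, 22.4 and 40.7 CPM in Gata2+/+ (log2 fold change 1.37, SE 0.34; edgeR adjusted p = 0.110, DESeq2 adjusted p = 0.0158). Rrm2, the small ribonucleotide reductase subunit made in S phase, had 164, 103 and 131 CPM in Gata2+/f and 72.5, 46.0 and 76.1 CPM in Gata2+/+ (1.03, SE 0.28; DESeq2 adjusted p = 0.0472). Dut, which destroys dUTP, showed the smallest difference, at 145, 101 and 103 CPM in Gata2+/f and 80.2, 86.7 and 87.6 CPM in Gata2+/+ (0.45, SE 0.22; edgeR adjusted p = 0.262). Rrm1, the large reductase subunit, and Tyms, thymidylate synthase, had log2 fold changes of 1.08 and 0.76. The counterparts of Tk1 and Rrm2 that do not depend on S phase were lower in Gata2+/f. Rrm2b, the small subunit induced by p53, had 16.9, 9.94 and 17.8 CPM in Gata2+/f and 32.4, 38.7 and 43.8 CPM in Gata2+/+ (−1.36, SE 0.30; DESeq2 adjusted p = 0.0081). Tk2, the mitochondrial thymidine kinase, had 51.2, 54.0 and 38.1 CPM in Gata2+/f and 74.9, 88.1 and 106 CPM in Gata2+/+ (−0.91, SE 0.24; DESeq2 adjusted p = 0.0366). Within a library, Rrm2 counts were 9.70, 10.3 and 7.37 times those of Rrm2b in Gata2+/f and 2.24, 1.19 and 1.74 times in Gata2+/+. Tk1 counts were 2.22, 1.82 and 1.59 times those of Tk2 in Gata2+/f and 0.560, 0.254 and 0.383 times in Gata2+/+, so Tk1 exceeded Tk2 in each Gata2+/f library and in none of the Gata2+/+ libraries. Both ratios were formed after the values were seen, and neither depends on how libraries are scaled. Some other ratios overlapped between groups. Rrm2 over Rrm1 was 0.315 to 0.514 in Gata2+/f and 0.384 to 0.425 in Gata2+/+. Cdt1 over Gmnn was 1.25 to 1.70 in Gata2+/f and 1.43 to 2.26 in Gata2+/+. Ccne1 over Ccne2 was 0.453 to 1.10 in Gata2+/f and 0.169 to 0.737 in Gata2+/+, and E2f1 over E2f2 was 0.601 to 0.697 in Gata2+/f and 0.584 to 1.26 in Gata2+/+, so these also overlapped.

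**Figure D4:**
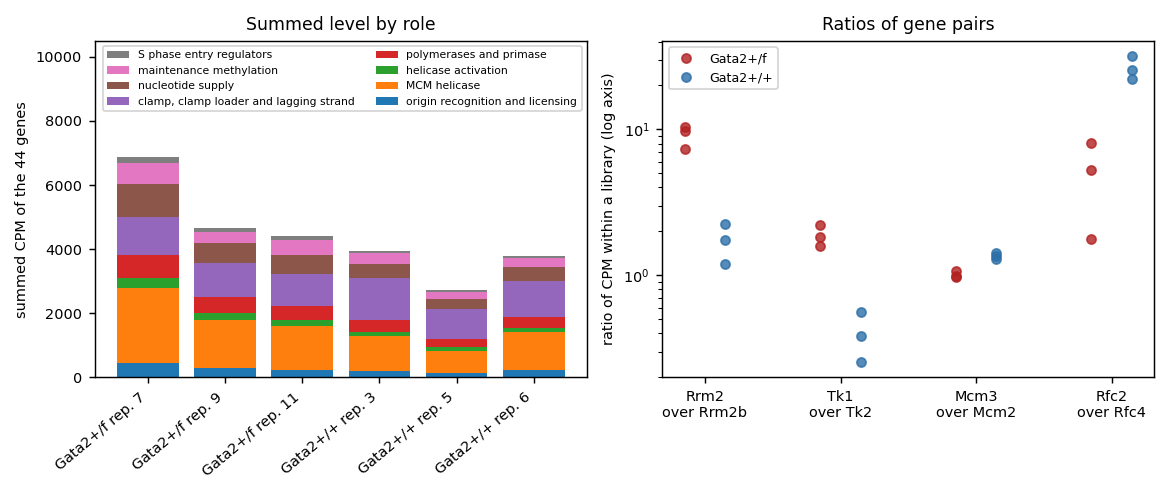
Left, summed CPM of the 44 genes in each library, stacked by role; right, ratio of CPM between gene pairs within each library on a log axis, red for Gata2+/f and blue for Gata2+/+. The bars are 6869, 4670 and 4425 CPM for Gata2+/f and 3947, 2720 and 3786 CPM for Gata2+/+, and the groups are apart in the 4 ratios drawn, which were chosen after their values were seen.

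Maintenance methylation genes differed from each other. Uhrf1, which reads hemimethylated DNA behind the fork and recruits Dnmt1, had 247, 146 and 166 CPM in Gata2+/f and 86.5, 47.4 and 75.4 CPM in Gata2+/+ (log2 fold change 1.42, SE 0.31; edgeR adjusted p = 0.0966, DESeq2 adjusted p = 0.00812). Dnmt1, the methyltransferase, had 401, 206 and 306 CPM in Gata2+/f and 243, 177 and 213 CPM in Gata2+/+, with overlap (0.53, SE 0.29). The difference between these fold changes was not tested.

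The regulators of S phase entry included the largest fold change of the 44 genes. Ccne1, cyclin E1, had 28.4, 12.2 and 9.09 CPM in Gata2+/f and 3.04, 4.19 and 1.92 CPM in Gata2+/+. The groups were apart, though Gata2+/f replicate 7 alone was more than the sum of the other Gata2+/f libraries, with a fitted log2 fold change of 2.44 (SE 0.55; 95% interval 1.16 to 3.73; edgeR adjusted p = 0.0974, DESeq2 adjusted p = 0.000453). Ccne2, cyclin E2, had 37.9, 11.2 and 20.1 CPM in Gata2+/f and 11.5, 5.69 and 11.3 CPM in Gata2+/+, with overlap (1.28, SE 0.51). E2f2, an activating E2F, had 76.6, 64.9 and 61.6 CPM in Gata2+/f and 34.5, 20.9 and 33.9 CPM in Gata2+/+ (1.18, SE 0.26; edgeR adjusted p = 0.0966). E2f1, the other activator listed, had 52.9, 45.2 and 37.0 CPM in Gata2+/f and 30.4, 26.4 and 19.8 CPM in Gata2+/+ (0.82, SE 0.26; edgeR adjusted p = 0.152). Both E2F genes had groups apart.

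Other genes of the pathway were read from fixed lists, and their shares are descriptions. Of 35 tested replication genes outside the 44, 28 were positive with a median log2 fold change of 0.53. The unadjusted edgeR p was under 0.05 for 11 (31.4%) that were higher and for 1 that was lower, and DESeq2 called 5 higher and 0 lower. Among all tested genes, 11.1% were higher and 11.5% lower at an unadjusted edgeR p under 0.05, and DESeq2 called 5.49% higher and 4.91% lower. The smallest p values belonged to Chtf18 (1.54), a subunit of an alternative clamp loader, Cdc7 (1.35), the kinase that fires origins, Top2a (1.37), which untangles DNA, and Dna2 (1.17), a flap nuclease. Of 34 other nucleotide genes, 28 were positive with a median of 0.64; at that p 15 (44.1%) were higher and 3 lower. Nme2, a nucleoside diphosphate kinase, had a log2 fold change of 0.89. Of 20 genes listed for chromatin assembly or DNA methylation, 16 were positive with a median of 0.40. The list is not limited to genes that act at the fork. It includes Dnmt3a (0.215), Dnmt3b (0.302), Tet2 (−0.638) and Tet3 (−0.143). At that p 5 (25%) of the 20 were higher and 1 lower. Those higher included Pclaf (1.77), a PCNA-binding factor, the histone chaperones Chaf1a (1.28) and Asf1b (1.33), and Hells (1.26), a remodeller. The lower gene was Chaf1b, the partner of Chaf1a in the CAF-1 chaperone, with 97.1, 68.2 and 87.5 CPM in Gata2+/f and 136, 114 and 140 CPM in Gata2+/+ (−0.62, SE 0.22; edgeR adjusted p = 0.169). In the RB and E2F family 12 of 16 were positive with a median of 0.52. Mybl2 (1.36), Tfdp1 (1.03), the dimer partner of E2F, and E2f3 (0.80) were higher, whereas Rbl2, the RB relative p130 of resting cells, had 153, 56.5 and 106 CPM in Gata2+/f and 205, 216 and 298 CPM in Gata2+/+ (−1.19, SE 0.37; edgeR adjusted p = 0.148).

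Lists of genes with other DNA synthesis tasks had medians closer to that of all genes. Of 10 genes that replicate mitochondrial DNA, 6 were positive with a median log2 fold change of 0.23. At an unadjusted edgeR p under 0.05, 0 were higher (11.1% of all tested genes). The 1 that was lower (10%, against 11.5% of all tested genes) was Primpol (−0.62), a primase-polymerase. Tfam, Ssbp1 and Mgme1, which package, bind or trim mitochondrial DNA, had log2 fold changes of 0.50, 0.61 and 0.53 above that p. Of 11 translesion and repair polymerase genes, 7 were positive with a median of 0.13. At that p 1 was higher and 1 lower (9.09% each), shares below those of all tested genes. In that list Polq (1.29), which joins broken ends, was higher, and Poln, polymerase nu, had 0.665, 0.618 and 0.299 CPM in Gata2+/f, against 3.60, 4.10 and 3.88 CPM in Gata2+/+ (−2.87, SE 0.50; DESeq2 adjusted p = 9.11e-09). Rev3l, of polymerase zeta, and its partner Mad2l2 had −0.62 and 0.43 with overlap. Mitosis genes, in comparison, were positive in 18 of 18 cases with a median of 1.33, against 0.90 for the 44 replication genes; that difference was not tested. Among them Birc5, Tpx2, Plk1 and Aurka, which build or regulate the spindle, had log2 fold changes of 1.60, 1.3, 1.59 and 1.56.

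**Figure D5:**
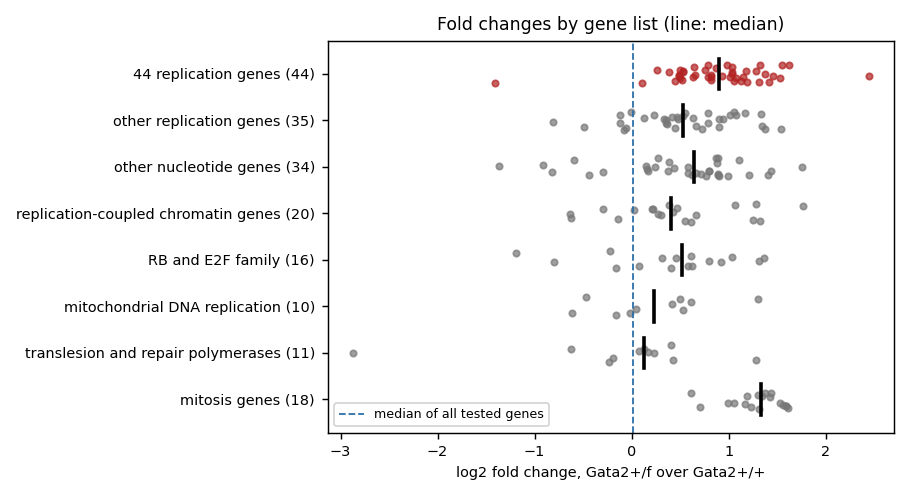
Log2 fold change of each tested gene, Gata2+/f over Gata2+/+, for the 44 replication genes (red) and for 7 fixed lists (grey), with the number of tested genes in brackets, black lines at list medians and a dashed line at the median of all tested genes. Medians run from 0.13 for translesion and repair polymerases to 1.33 for mitosis genes, with 0.90 for the 44 genes.

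Markers of other cell types differed between the groups. Late neutrophil markers were positive for 13 of 13 genes, with summed levels of 4157 to 8401 CPM in Gata2+/f and 172 to 512 CPM in Gata2+/+. Early granulocyte markers were positive for 9 of 9, at 2488 to 12330 CPM in Gata2+/f and 971 to 3471 CPM in Gata2+/+. Monocyte markers were positive for 10 of 10, at 1771 to 5215 CPM in Gata2+/f and 585 to 1703 CPM in Gata2+/+. The groups were apart in the late neutrophil and monocyte sums, with overlap between groups for the early granulocyte list. Mast cell and basophil markers were positive for 0 of 11, at 1353 to 5015 CPM in Gata2+/f and 11830 to 14660 CPM in Gata2+/+. Megakaryocyte markers were positive for 3 of 6 tested, at 45.7 to 198 CPM in Gata2+/f and 583 to 756 CPM in Gata2+/+. Erythroid markers, from a lineage that cycles fast, were positive for 6 of 11, at 4452 to 7455 CPM in Gata2+/f and 7985 to 10830 CPM in Gata2+/+; their median log2 fold change was 0.88 although the sum was lower. Lymphoid markers were positive for 8 of 8 tested, at 473 to 1212 CPM in Gata2+/f and 155 to 286 CPM in Gata2+/+. No marker had 0 counts in all 3 Gata2+/f libraries, although Tpsb2, a mast cell protease, had 0 in replicates 7 and 9. Within Gata2+/f the late neutrophil sum was 4157, 4465 and 8401 CPM in replicates 7, 9 and 11, where the replication gene sum was 6869, 4670 and 4425 CPM. The part of cell composition in the replication gene result was not tested.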

How the data were processed

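Per the labels' protocols, frozen marrow was thawed, c-kit+ cells were sorted and poly-A selected stranded TruSeq libraries were made. Tools listed in the submitters' processing notes are RSEM 1.3.0, STAR 2.5.4a and CASAVA 1.8.2, with GRCm38 as the build; the annotation and strand setting are not given in the sources used here. The values deposited by the authors are RSEM expected counts per Ensembl gene, 1 column per library, not normalized; 11.7% are not whole, and they were rounded to whole numbers. GENCODE M21 gave symbols for 97.5% of IDs.

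In R 4.3.3, filterByExpr of edgeR 4.0.16 (minimum count 10) and TMM factors (0.821 to 1.11) were followed by the quasi-likelihood test (glmQLFit in its legacy form, glmQLFTest, two-sided, no covariate) over all 15432 genes, with Benjamini-Hochberg adjustment and a threshold of 0.05. DESeq2 1.42.0, limma 3.58.1 voom and other scalings, filters and library sets were alternatives. No library duplicated another (chi-square per gene 252 or more). CPM per kb used the union of annotated exons.

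The 44 genes, all lists and rules were chosen with earlier results of these data known. Named with values per library are, by role, the 2 members with the smallest and the 1 with the largest p, and all of roles with 4 or fewer; from other non-marker lists, up to 4 genes with the smallest p (1 such gene is not reported here); any other name was chosen after its values were seen.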

Additional observations from a re-analysis of the deposited data

How the results depend on the processing

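Replicate numbers are not shared between the genotypes. No paired analysis was possible because the groups share 0 replicate numbers. The number of genes called overall was 0 in edgeR's quasi-likelihood test, 1723 with DESeq2's Wald test, 32 with the bias-adjusted form, 9 with limma voom, 19 with a filter of 1 count in total, 444 at adjusted p under 0.1, and 0 to 66 when 1 library was left out (66 without Gata2+/f replicate 11). Members called went to 15 with DESeq2 and to 7 at adjusted p under 0.1. Gata2 passed with DESeq2 only (log2 fold change −1.26, adjusted p = 0.0144); over the libraries left out it ranged from −1.60 to −1.08. Orc2 (range −0.063 to 0.622 over the libraries left out) and Rfc1 (−0.063 to 0.324) turned negative without Gata2+/f replicate 7, and no other member changed sign under any alternative run. The members' median ranged from 0.72 to 1.12, the positive members numbered 41 to 43, and members higher at an unadjusted p below 0.05 numbered 18 (without Gata2+/+ replicate 5) to 38 (unscaled totals). Unscaled library totals moved the median of all genes to 0.21 (upper quartile factors, 0.11), and of genes below that p 68.7% were then higher, against 49.3% with TMM; the members' median was then 1.11. With 3 libraries a group, an exact permutation test of a single value cannot go below p = 0.1.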
